A study of Drosophila melanogaster with 2 samples.

Results

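The nicotinic acetylcholine receptor (nAChR) subunit genes of Drosophila melanogaster are 10 genes, nAChRalpha1 to nAChRalpha7 and nAChRbeta1 to nAChRbeta3, among 17684 RefSeq genes on the chromosome arms. They were chosen by name, and open chromatin at each was taken as every ATAC-seq peak that overlaps the gene span extended by 2 kb on both sides. This gave 61 of 17942 peaks in replicate 1 and 50 of 15248 peaks in replicate 2. Merging overlapping peaks and keeping regions with a peak of each replicate gave 50 consensus peaks at these genes, of 14656 in the genome. Each held exactly 1 peak per replicate and belonged to 1 subunit gene. All 10 genes had at least 1 consensus peak, from 1 at nAChRalpha4, nAChRalpha7 and nAChRbeta2 to 16 at nAChRalpha6.

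nAChRs are cation channels made of 5 subunits around a pore that opens when acetylcholine binds, and they carry most fast excitation in the fly brain. Alpha subunits carry an adjacent pair of cysteines in the acetylcholine binding site and beta subunits do not. Mushroom body (MB) neurons, called Kenyon cells, receive odor input from cholinergic projection neurons and release acetylcholine themselves, so that nAChRs act on both sides of their synapses. In insects, nAChRs are the targets of neonicotinoid and spinosyn insecticides.

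Accessible chromatin was measured by ATAC-seq, in which Tn5 transposase cuts open DNA, in MB nuclei of naive adult control flies. There was 1 condition with 2 biological replicates. The flies carried w*, UAS-unc84::2xGFP, which tags the nuclear envelope, tubGal80(ts), a temperature-sensitive repressor of Gal4, P{VALIUM20-mCherry.RNAi}attP2, a control RNAi transgene without a fly target, and R14H06-Gal4, a driver with an enhancer of rutabaga. Both replicates had this genotype, and each was a pool of 50 to 60 heads, from males per the methods for nuclei isolation. Tagged nuclei were captured with anti-GFP beads, which enriches nuclei in which R14H06-Gal4 was active. The purity of the capture is not given in the sources used here, and the types of Kenyon cells are pooled in each value. The methods give a default rearing temperature and temperature shifts for flies with Gal80(ts), without saying which applied to the ATAC-seq flies, and the exact age of these flies is not given in the sources used here. Since there was no other condition, the values below are descriptions and no group was tested against another.

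Peak height is given as the fold enrichment of MACS2, the signal at the peak summit relative to the local background. Read depth per peak is not in the lists, so that no counting interval can be set on a fold value, and the difference between the replicates is the measure of error. Of all protein-coding genes, 77.6% had a consensus peak within 2 kb of the span and 56.2% had one across a gene end. Markers of Kenyon cells were open, with a consensus peak at 9 of 9 genes, across a gene end in each, and a highest mean fold from 4.89 at rut to 8.002 at toy. Of 6 glial markers, 4 had a consensus peak, with highest mean folds of 6.27 at wrapper, 5.74 at nrv2, 4.57 at moody and 2.64 at Gs2. Only moody had one across a gene end. No consensus peak was found at repo and alrm, though repo had 1 peak in replicate 1 alone. Of 7 photoreceptor markers, 4 had a consensus peak, with highest mean folds of 5.71 at trpl, 4.80 at norpA, 2.77 at trp and 2.11 at ninaE. Only norpA had one across a gene end, and ninaC, chp and Arr1 had no consensus peak. Of 5 muscle markers, 2 had one, up to 4.64, and none across a gene end. The part that nuclei of other cell types have in the values of the nAChR genes was not tested.

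Positions refer to release 6 of the genome (dm6), counted from 1. The gene table used gives the start and end of each gene without strand, exons or introns, so that a gene has a lower and an upper end by coordinate, and either may be the transcription start. A consensus peak in the window from 250 bp outside to 50 bp inside a gene end was found at 10 of 10 subunit genes. Among protein-coding genes at least as long as the shortest subunit gene (1968 bp), 75.2% had such a peak, and 88.2% had one anywhere within 2 kb of the span (77.6% of protein-coding genes of any length). A peak lay across a gene end itself at 9 of 10 subunit genes, against 70.3% of genes of that length and 56.2% of protein-coding genes of any length. The exception was nAChRbeta3. Its peak in the window lay 186 bp outside it, within Ets21C, whose span holds nAChRbeta3, so that this peak may belong to either gene. No subunit gene had peaks across both ends, which 7.38% of genes of that length had. At each of the 9 genes, a peak thus lay across 1 end only: the lower end at nAChRalpha2, nAChRalpha4, nAChRalpha5 and nAChRbeta1, and the upper end at nAChRalpha1, nAChRalpha3, nAChRalpha6, nAChRalpha7 and nAChRbeta2. At nAChRalpha6, a further peak at CG13123 lay 71 bp outside the lower end, within the window at that end. The summits of the 9 peaks across an end lay between 6.5 bp and 204 bp from it, with a median of 63.5 bp, and 8 of 9 lay within 100 bp. A summit within 250 bp of a gene end was thus found at 9 of 10 subunit genes, against 51.0% of protein-coding genes at least as long as the shortest. These are the same 9 genes, and the 250 bp were set after values were seen, so that this is no separate result. Since 5 of the 10 subunit genes span 50 kb or more, the shares above are not matched for length. The part that gene length has in them was not tested.

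**Figure D1:**
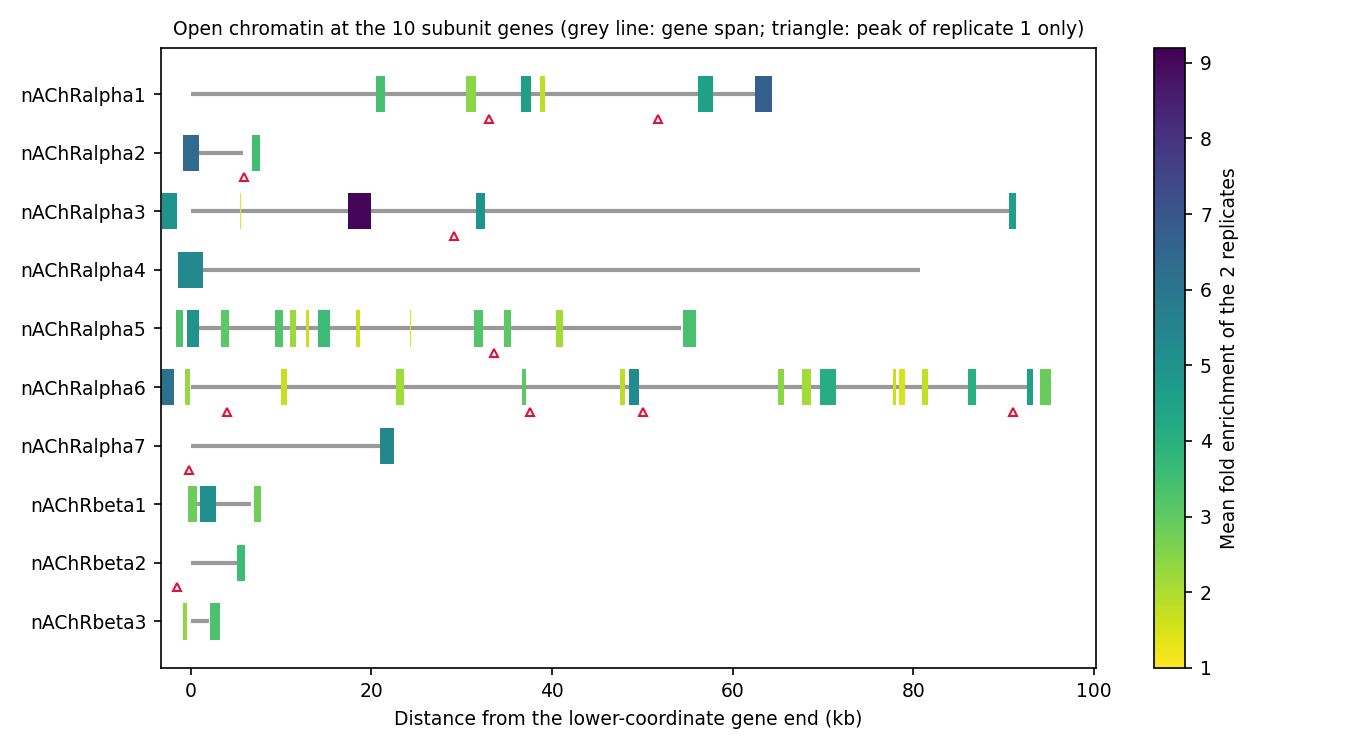
Consensus peaks (colored bars, mean fold enrichment of both replicates) along the 10 subunit genes (grey lines), by distance in kb from the lower-coordinate gene end. Red triangles mark the 11 peaks of replicate 1 alone. The 29 consensus peaks of nAChRalpha5 and nAChRalpha6 are spread along these genes, while nAChRalpha4 is open at 1 end and has no other peak.

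The subunits nAChRalpha1 to nAChRalpha4 are ligand-binding subunits that assemble with beta subunits. nAChRalpha1, a subunit whose loss lowers sensitivity to neonicotinoids, spans 63262 bp on 3R from 24393896 to 24457157 and had 6 consensus peaks, 5 of them inside the gene. The highest, from 24456417 to 24458260, lay across the upper end with a fold of 6.60 in replicate 1 and 6.86 in replicate 2. Its summit was 204 bp outside the gene, the largest such distance among the end peaks. Inside, the peak from 24430488 to 24431547 reached 4.63 and 4.57, and the one from 24450034 to 24451742 reached 4.65 and 4.49. These 2 were of like height in both replicates, whereas the peak from 24414403 to 24415443 was higher in replicate 1, with 3.69 against 3.15. The others had folds of 2.52 and 2.33 (from 24424361) and 1.85 and 1.77 (from 24432595). The part of the gene from its lower end to the first peak, 20507 bp, held none.

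nAChRalpha2 lies next to nAChRalpha1 and is short, 5720 bp on 3R from 24485428 to 24491147. Its end peak, from 24484543 to 24486305 across the lower end, was the second highest end peak of the family, with 5.98 in replicate 1 and 6.80 in replicate 2. The replicates thus differed by -0.19 on the log2 scale at this peak. A second peak, from 24492170 to 24493045, lay 1023 bp beyond the upper end, with 3.78 and 3.26. The rest of the gene, 4842 bp, held no consensus peak, and this stretch includes mir-1017, a microRNA gene at 24488612 to 24488682.

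nAChRalpha3 spans 90970 bp on X from 8276200 to 8367169 and held the highest peak of the family. This peak, from 8293604 to 8296117, lay inside the gene, with its edge 17404 bp from the nearest gene end, and had a fold of 8.07 in replicate 1 and 10.1 in replicate 2. By its mean of 9.10 ± 1.45 (SD, n = 2) it ranked 53 among 14656 consensus peaks, and it ranked 143 in replicate 1 and 17 in replicate 2. The size of its difference between replicates, -0.33 on the log2 scale, was larger than at 98.7% of all consensus peaks, while the summits were 1 bp apart. A second inner peak, from 8307827 to 8308756, had 5.06 and 4.82. The end peak, from 8366769 to 8367634 across the upper end, had 4.67 and 4.62, so that it was lower than both of these inner peaks in replicate 1 and in replicate 2. Between this end and the second inner peak, 58012 bp (63.8% of the gene) held no peak in either replicate. The 2 remaining peaks were a weak one inside, from 8281589 to 8281725, with 1.36 and 1.33, and one 1483 bp outside the lower end, from 8273030 to 8274717, with 5.20 and 4.83. The latter overlaps CG1636 and CG15343 and covers an end of each, so that it cannot be assigned to nAChRalpha3.

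nAChRalpha4, also known as redeye for its role in sleep, spans 80780 bp on 3L from 23206669 to 23287448. Its only peak in either replicate, from 23205207 to 23207997, lay across the lower end, with 5.16 in replicate 1 and 5.54 in replicate 2. With 2791 bp it was the widest peak of the family in replicate 1, whereas in replicate 2 it had 2457 bp and the inner peak of nAChRalpha3 was wider, with 2514 bp. The other 79451 bp, 98.4% of the gene, held no peak. The stretches around the gene were also sparse, with 2 consensus peaks in the 100 kb below the extended span and 3 in the 100 kb above it, where the whole arm had 11.3 per 100 kb. The highest mean fold was 6.84 below the gene and 5.02 above it. On this arm the last gene ends at 28012599, so that nAChRalpha4 lies in its upper part by coordinate. The part that the position on the arm, or the removal of multi-mapping reads, has in the low number of peaks was not tested.

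nAChRalpha5, nAChRalpha6 and nAChRalpha7 are the subunits most like the vertebrate alpha7 subunit, which forms channels from copies of itself. nAChRalpha5 spans 54232 bp on 2L from 14040170 to 14094401 and had 13 consensus peaks, 10 of them inside. Its end peak, from 14039731 to 14041021 across the lower end, had 5.001 in replicate 1 and 4.979 in replicate 2, with the summit at the same base in both. The other peaks were lower, at most 3.75 in either replicate, and 5 of the 10 inner peaks had a fold above 3 in both replicates. The highest of these, from 14054247 to 14055553, had 3.50 and 3.75. The weakest, from 14064389 to 14064564, had 1.39 and 1.38. Of the 2 outer peaks, the one from 14038558 to 14039343 (3.36 and 3.20) lay within 500 bp of lncRNA:CR45284, and the one from 14094724 to 14096145 (3.24 and 3.52) lay 323 bp beyond the upper end with no other gene end within 500 bp. NimC4, a protein-coding gene nested at 14047582 to 14048863, held no peak.

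nAChRalpha6, the target of spinosad, is the longest subunit gene, 92934 bp on 2L from 9793317 to 9886250, and had the most peaks, 20 in replicate 1 and 16 in replicate 2, all 16 shared. The end peak, from 9885929 to 9886596 across the upper end, had 4.52 and 4.64, with lncRNA:CR44701 within 500 bp. One of 12 inner peaks was higher, the one from 9841863 to 9842954 with 5.41 and 5.07, and it lay 43296 bp from the nearest gene end. Inner peaks with a mean fold near 4 were those from 9862951 to 9864744 (4.10 and 4.06) and from 9879394 to 9880276 (4.17 and 3.82). The other 9 inner peaks had folds from 1.35 to 3.28. The weak peak from 9874256 to 9874990 differed most between replicates, 1.97 against 1.53, more than at 99.4% of all consensus peaks. The highest value in the extended span, 6.10 in both replicates from 9789990 to 9791477, lay 1840 bp outside the gene at CG4036, with ends of CG13123 and hpRNA:CR18854 within 500 bp. A peak of 2.218 and 2.397 at CG13123 lay 71 bp from the lower end of nAChRalpha6, and one of 2.99 and 2.79 lay at Fkbp59 and lncRNA:CR44701. These 3 outer peaks are therefore shared with neighbors.

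nAChRalpha7, which is needed for the giant fiber escape response, spans 21373 bp on X from 19327075 to 19348447. Its single consensus peak, from 19348049 to 19349600 across the upper end, had 5.86 in replicate 1 and 4.93 in replicate 2. The summit lay 6.5 bp from the gene end, the smallest distance of the family. The remaining 20974 bp of the gene held no peak, and a peak of 63 bp with a fold of 1.33 in replicate 1 alone lay 133 bp beyond the lower end.

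Beta subunits complete the channel and contribute the other face of the binding site. nAChRbeta1, a subunit in which mutations give resistance to neonicotinoids, spans 6645 bp on 3L from 4429349 to 4435993 and had 3 consensus peaks. The highest, from 4430378 to 4432117, lay inside the gene, 1029 bp from the lower end, with 5.18 in replicate 1 and 5.12 in replicate 2. The peak across the lower end, from 4429049 to 4430025, was lower, with 2.94 and 2.72 and its summit at the same base in both replicates. With nAChRalpha3 and nAChRalpha6 it was thus 1 of 3 subunit genes whose highest inner peak exceeded the end peak in both replicates. The third peak, 308 bp beyond the upper end from 4436301 to 4437113 (2.95 and 2.69), overlaps CG15021.

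nAChRbeta2 spans 5879 bp on 3R from 24509228 to 24515106 and had 1 consensus peak, from 24514376 to 24515198 across the upper end. Its fold was 3.57 in replicate 1 and 3.54 in replicate 2. DZIP1 begins at 24515278, within 500 bp of this peak, so that the peak may belong to either gene. A weak peak of 74 bp in replicate 1 alone, with a fold of 1.24, lay 1507 bp below the lower end. nAChRbeta3, the most divergent subunit, is the shortest, 1968 bp on 2L from 545129 to 547096, and lies within the span of Ets21C, a transcription factor gene. No peak of either replicate overlapped the gene itself. The 2 consensus peaks in the extended span lay 415 bp below it at Spp (from 544270 to 544714, 2.52 and 2.21) and 186 bp above it within Ets21C (from 547282 to 548350, 3.44 and 3.22).

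**Figure D2:**
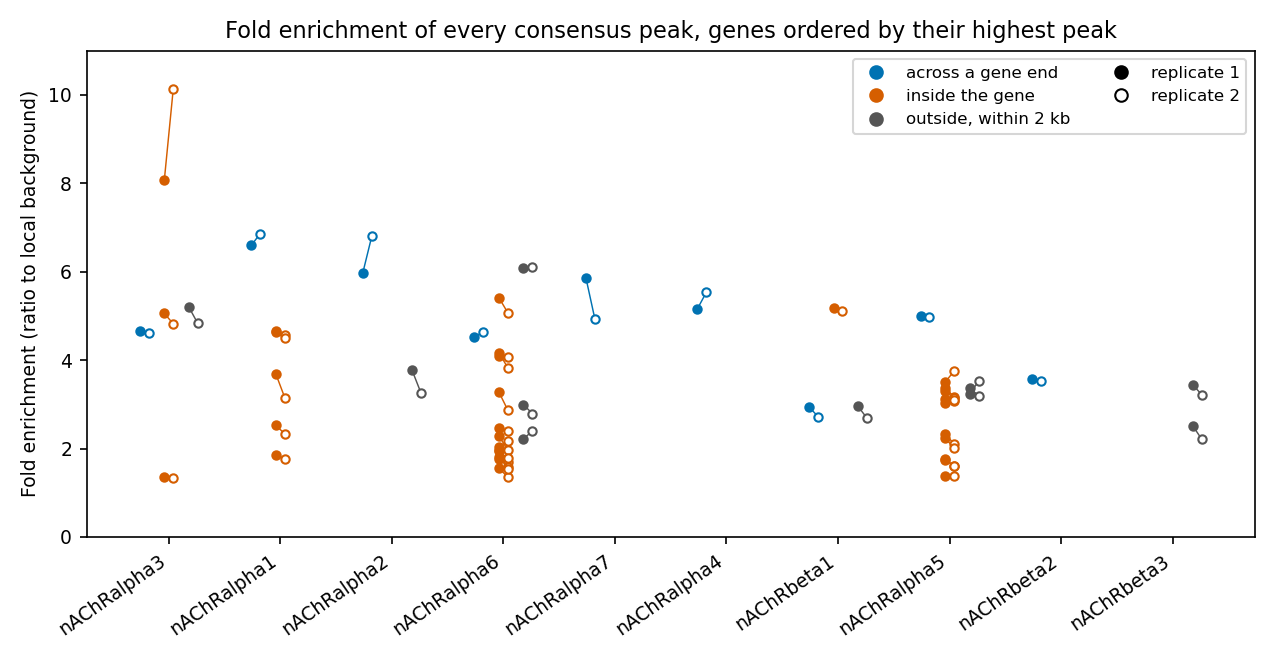
Fold enrichment (ratio to the local background) of the 50 consensus peaks in replicate 1 (filled) and replicate 2 (open), by gene and by position relative to it. The inner peak of nAChRalpha3 stands highest in both replicates, at 8.07 and 10.1, and the peaks of nAChRbeta2 and nAChRbeta3 stay below 3.6.

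By the highest fold in the extended span, the order was nAChRalpha3 (9.10 ± 1.45), nAChRalpha1 (6.73 ± 0.188), nAChRalpha2 (6.39 ± 0.581), nAChRalpha6 (6.10 ± 0.0022), nAChRalpha7 (5.40 ± 0.655), nAChRalpha4 (5.35 ± 0.264), nAChRbeta1 (5.15 ± 0.0435), nAChRalpha5 (4.99 ± 0.0154), nAChRbeta2 (3.55 ± 0.0221) and nAChRbeta3 (3.33 ± 0.158), each as mean ± SD of 2 replicates. The ranges over the replicates overlapped between nAChRalpha1 and nAChRalpha2, between nAChRalpha2 and nAChRalpha6, and between neighbors from nAChRalpha7 to nAChRbeta1, so that these neighbors did not differ beyond their spread. nAChRalpha3 lay above the next gene in both replicates, and nAChRbeta2 and nAChRbeta3 lay below all alpha subunits and nAChRbeta1 in both. The place of nAChRbeta2 depended on the extension of the span. With 5 kb its highest mean fold was 5.16, above nAChRalpha5 and within the SD of nAChRbeta1 (5.15 ± 0.0435). That peak lay more than 2 kb beyond the upper end, on the side of DZIP1, so that it cannot be assigned to nAChRbeta2. With 5 kb nAChRbeta3 was still the lowest, with 4.44. With the peak at CG4036 set aside, the highest peak of nAChRalpha6 had a mean fold of 5.24, with 5.41 in replicate 1 and 5.07 in replicate 2. This mean was below those of nAChRalpha7 and nAChRalpha4. The ranges over the replicates overlapped, so that these genes did not differ beyond their spread. The median of the highest mean fold over the 10 genes was 5.37, and it was 4.18 over the 7504 protein-coding genes at least as long as the shortest of them, with genes without a peak at 0, and 4.44 over those with a peak. Long genes had higher values: over the 307 protein-coding genes of 50 kb or more the median was 5.80, against 6.10 over the 5 subunit genes of that length. This 6.10 is the value of nAChRalpha6, from the peak at CG4036. With that peak set aside, nAChRalpha6 (5.24), nAChRalpha4 (5.35) and nAChRalpha5 (4.99) all lay below 5.80. The extended spans of the 307 genes can likewise hold peaks at neighbors. Of the 5 long subunit genes, nAChRalpha3 lay above 96.7% of the long genes and nAChRalpha1 above 70.0%. With the peak at CG4036 kept, nAChRalpha6 lay above 57.3%, whereas nAChRalpha4 lay above 36.8% and nAChRalpha5 above 27.7%.

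Across the 50 consensus peaks, the median of the mean fold was 3.24, with quartiles of 2.15 and 4.59, and it was 2.69 over all consensus peaks, with quartiles of 1.80 and 4.11. A mean fold of at least 5 was reached by 9 peaks at 7 genes, or 9 of 50, where 13.8% of all consensus peaks reached it. These 9 include outer peaks at ends of other genes: the one at CG4036 near nAChRalpha6 (6.10), and the one at CG1636 and CG15343 near nAChRalpha3 (5.02). Whether the share differs from that of all consensus peaks was not tested. A fold under 2 in both replicates was found for 10 peaks, where 29.1% of all had it. All 10 lay inside a gene, 8 of them in nAChRalpha5 and nAChRalpha6. The 9 peaks across a gene end had a median of 4.99 and ranged from 2.83 at nAChRbeta1 to 6.73 at nAChRalpha1. The 31 inner peaks had a lower median of 2.43 and a wider range, from 1.34 to 9.10, both ends of it in nAChRalpha3. The same order held over the genome, with a median of 3.62 for consensus peaks across an end of a protein-coding gene and of 2.11 for those inside one. End peaks were also wider, with a median of 1291 bp against 832 bp for inner peaks, and the medians over the genome were 1287 bp and 729.5 bp.

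Subunit genes of similar length differed in their number of peaks. nAChRalpha4 (80780 bp) and nAChRalpha6 (92934 bp) had 1 and 16 consensus peaks, and nAChRalpha3 (90970 bp) had 5. Per 10 kb of the extended span this was 0.118 at nAChRalpha4, 0.526 at nAChRalpha3, 0.892 at nAChRalpha1, 1.65 at nAChRalpha6 and 2.23 at nAChRalpha5. Among the 307 protein-coding genes of 50 kb or more, the median was 1.09 per 10 kb, and 4.89% of them lay below nAChRalpha4 and 94.1% below nAChRalpha5. At most 1 consensus peak was found at 8.79% of these long genes, as at nAChRalpha4, and at least 10 at 46.6%, as at nAChRalpha5 and nAChRalpha6. The stretches on both sides of nAChRalpha4 were sparse too, as given above. Of the extended spans of all 10 genes together, consensus peaks covered 10.3%, with 10.6% covered in replicate 1 and 9.12% in replicate 2. The share was highest at the short nAChRbeta1 (33.2%) and lowest at nAChRalpha4 (3.29%).

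**Figure D3:**
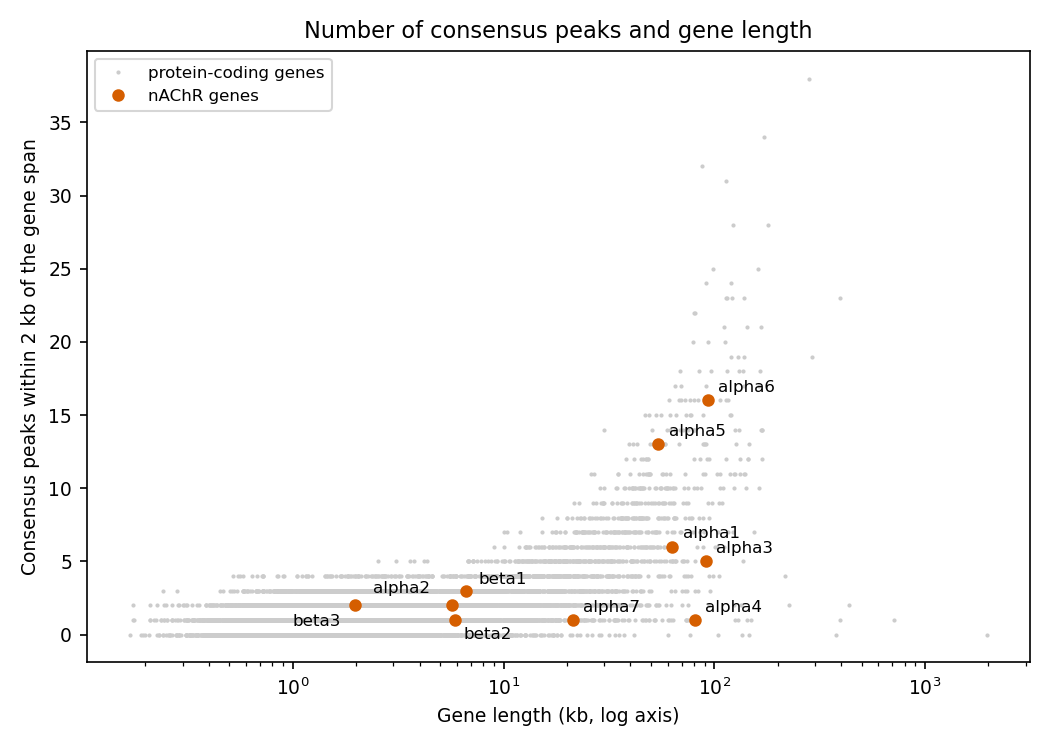
Consensus peaks within 2 kb of the gene span against gene length (kb, log axis) for protein-coding genes (grey) and the 10 subunit genes (orange). nAChRalpha6 with 16 peaks and nAChRalpha4 with 1 peak have similar lengths.

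nAChRalpha1, nAChRalpha2 and nAChRbeta2 lie in a row on 3R, in 121.2 kb from 24393896 to 24515106 that hold 12 consensus peaks and 1 other protein-coding gene, CG31128. Between nAChRalpha1 and nAChRalpha2, a stretch of 28270 bp held 1 consensus peak, from 24474082 to 24477299, with a fold of 2.83 in replicate 1 and 2.93 in replicate 2, outside the extended spans. CG31128 and lncRNA:CR45649 are annotated in this stretch. The 18080 bp between nAChRalpha2 and nAChRbeta2 hold no annotated gene, and 3 consensus peaks lay there. The highest, from 24498539 to 24500412, had 6.01 in replicate 1 and 6.08 in replicate 2, above each peak of nAChRbeta2 and beside 5.98 and 6.80 at the nAChRalpha2 end peak. It lay beyond 2 kb of both genes and is not among the 50. The other 2 were the outer peak of nAChRalpha2 described above and a weak one from 24493789 to 24494036, with 1.54 and 1.53.

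Peaks without a partner in the other replicate were all weak at these genes, and all were in replicate 1. A partner here is a peak that overlaps by at least 1 bp. With a reciprocal overlap of at least 50%, 46 consensus peaks were found in place of 50, and 13 in place of 16 at nAChRalpha6. Every peak of replicate 2 had a partner in replicate 1, where 1.06% of all replicate 2 peaks had none. Replicate 1 had 11 of 61 peaks (18.0%) without a partner, where 16.6% of all its peaks had none. Their folds ranged from 1.21 to 1.70, with a median of 1.33, and their widths from 52 to 482 bp. Of these, 8 lay inside a gene, 4 of them in nAChRalpha6, and the strongest was in nAChRalpha6 from 9830668 to 9831077. At the 50 consensus peaks, the median difference in log2 fold, replicate 1 minus replicate 2, was 0.07, with an SD of 0.12 and a range from -0.33 at the high inner peak of nAChRalpha3 to 0.36 at the weak peak of nAChRalpha6. Over all consensus peaks the median was 0.04 and the SD 0.12. The fold was higher in replicate 1 at 39 of 50 peaks, where 66.9% of all consensus peaks had it higher. By position this was 5 of 9 end peaks and 27 of 31 inner peaks, and over the genome 62.5% of peaks across an end of a protein-coding gene and 70.0% of those inside one. Summits were 21 bp apart in the median and at most 211 bp, with 5 of 50 more than 100 bp apart.

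**Figure D4:**
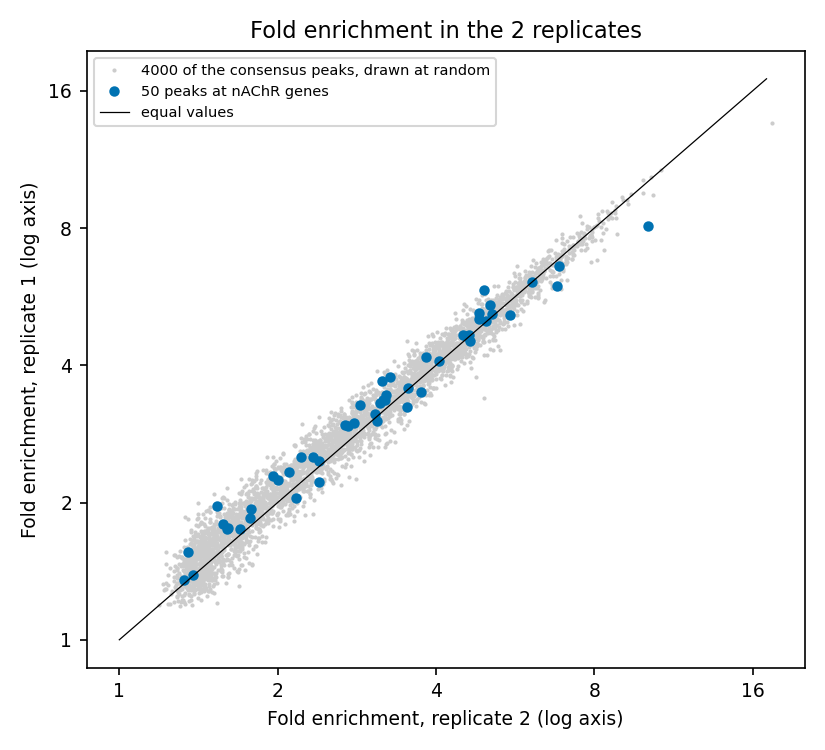
Fold enrichment in replicate 1 against replicate 2 (log axes) for the 50 peaks at nAChR genes (blue) and 4000 consensus peaks drawn at random (grey), with the line of equal values. The peaks at nAChR genes lie along the line, and the farthest below it is the inner peak of nAChRalpha3.

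The other cholinergic genes were taken from a list of 9: ChAT, VAChT and ChT, which make acetylcholine, load it into vesicles and take up choline, Ace, which breaks acetylcholine down, the muscarinic receptors mAChR-A, mAChR-B and mAChR-C, and qvr and RIC-3, which regulate nAChR channels or their assembly. A consensus peak was found at 8 of 9, across a gene end in each of the 8, against 10 of 10 and 9 of 10 nAChR genes and 77.6% and 56.2% of all protein-coding genes. The exception was mAChR-C, without a peak in either replicate. Their highest mean fold was 4.04 in the median, with mAChR-C at 0. ChAT and VAChT share a locus and an end peak, with 3.81 in replicate 1 and 3.70 in replicate 2. The highest were qvr, with 6.87 and 5.79, and Ace, with 5.79 and 5.88. Among the muscarinic receptors, mAChR-B reached 5.63 and 5.39, and mAChR-A 3.97 and 3.84. RIC-3, a chaperone of nAChRs, had 3.77 and 4.31.

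Cys-loop channels other than nAChRs are built like them and are gated by GABA, glutamate, histamine, protons or other ligands. Of 11 such genes, 9 had a consensus peak and 8 had one across a gene end, beside the same 77.6% and 56.2%. None was found at alka and pHCl-2, and the peak of SecCl lay across no end. Their highest mean fold was 4.84 in the median, from 0 to 6.65 at pHCl-1, with GluClalpha at 6.10 in replicate 1 and 6.31 in replicate 2 and the GABA receptor Rdl at 4.38 and 4.56. These values overlap those of the nAChR genes, of which nAChRalpha3 alone reached above the highest of both lists in both replicates. Since CG8916 and Lcch3 share a peak (5.39 and 4.81), these 2 are not independent. The difference between the lists was not tested.

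**Figure D5:**
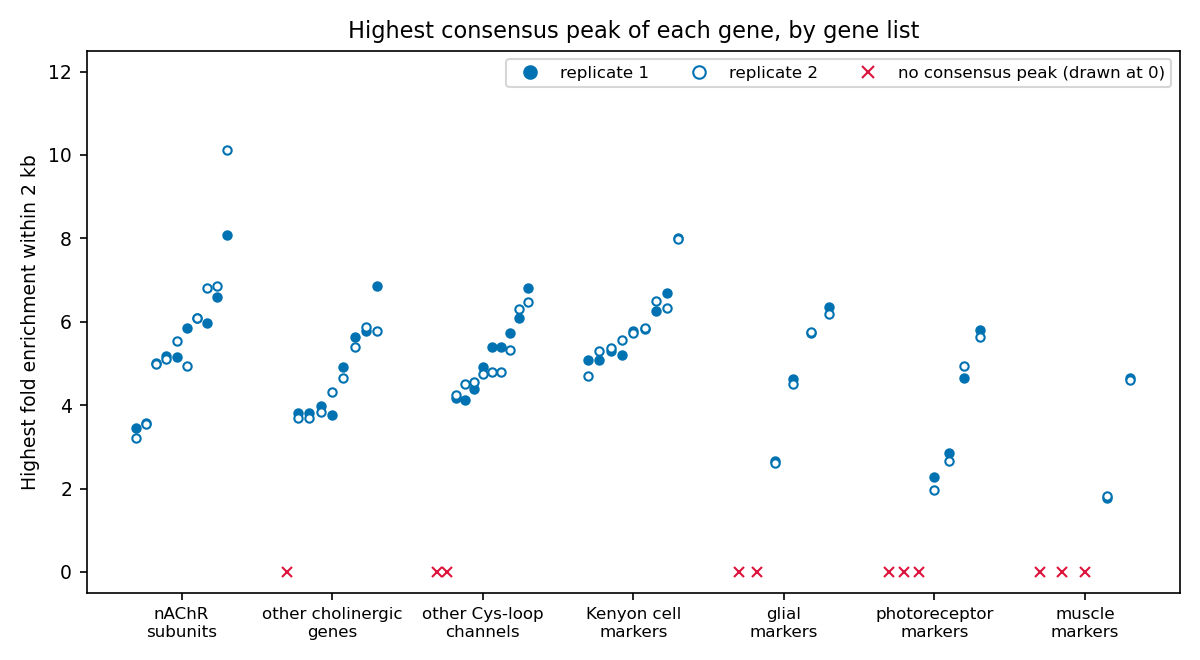
Highest fold enrichment within 2 kb of each gene in replicate 1 (filled) and replicate 2 (open) for nAChR subunits, other cholinergic genes, other Cys-loop channels and markers of 4 cell types, with crosses at 0 for genes without a consensus peak. The 10 nAChR genes and the 9 Kenyon cell markers have no cross. Crosses stand at 1 other cholinergic gene, 2 other Cys-loop channels, 2 glial markers, 3 photoreceptor markers and 3 muscle markers.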

How the data were processed

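ATAC-seq of MB nuclei was analysed from 2 peak lists, 1 per replicate. Per the labels and the methods, the authors trimmed reads (Trimmomatic 0.39), aligned them (Bowtie2 2.4.1) to dm6, shifted them for the transposase, removed multi-mapping, mitochondrial, scaffold and duplicate reads, and ran MACS2 (2.1.2, q of 0.01, length of at least 50 bp, gap of at most 100 bp) per replicate. The replicates differed in the number of reads left, which can change how many weak peaks are called. The deposited columns are a fold enrichment (a ratio to local background), -log10 p, -log10 q and a score made from -log10 q. The -log10 values grow with depth, so that fold was used between replicates. Depth per peak is unknown.

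Consensus peaks (overlap of at least 1 bp) were matched to RefSeq spans extended by 2 kb. The gene table lacks strand, so that either gene end replaced the planned gene start. All 57 listed genes matched, 2 by synonym (RIC-3 and alka). Motifs and proteins were not analysed here. All 10 members are named. Members and lists were chosen with earlier results of these data known, and the fold thresholds, the 50 kb minimum, the summit distance of 250 bp and the row on 3R after values were seen. Code was tested on simulated data. Alternatives varied the overlap, the q minimum, the extension, the gene-end window and the replicate. Python 3.11.15, numpy 2.4.6 and pandas 2.3.3 were used.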

Additional observations from a re-analysis of the deposited data

How the results depend on the processing

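Of 53 comparisons of a summary value with an alternative, 8 moved the value by more than the replicates' SD or, for a count, by more than 1.5 times. The median log2 difference between replicates was above 0 in each alternative run for it. The number of consensus peaks was 40 without extension of the gene span and 59 with 5 kb, against 50. The median number per gene was 1.5 and 4 with these, against 2.5. With no extension nAChRbeta3 had none, so that 9 of 10 genes had a peak, and the covered share was 8.03% against 10.3%. With 5 kb the median fold was 3.09 against 3.24, and the highest mean fold was 5.16 at nAChRbeta2 and 4.44 at nAChRbeta3. nAChRbeta2 thus moved above nAChRalpha5 (4.99) and to about the value of nAChRbeta1 (5.15), through a peak on the side of DZIP1. Leaving out either replicate gave 50 to 61 peaks, 2.5 to 3 per gene, a median fold from 2.95 to 3.14, a median highest fold from 5.33 to 5.52, a covered share from 9.12% to 10.6%, and 10 genes with a peak and 10 with one at a gene end. With -log10 p in place of fold, the median log2 difference between replicates was 1.28 against 0.07. A -log10 q of at least 10 left 45 peaks, a reciprocal overlap of at least 50% left 46, and leaving out peaks within 500 bp of an end of another protein-coding gene left 43. At single genes, 9 of 139 comparisons moved, 6 of 70 of a count and 3 of 69 of a fold. Leaving out a replicate could not move the fold of a single gene. The main value there is the mean of the 2 replicates, and the limit is their SD. Those comparisons are therefore no evidence of stability. Without replicate 2, nAChRalpha7 and nAChRbeta2 had 2 peaks each in place of 1. The cause of these shifts was not tested. No paired analysis was possible because flies of a single condition were profiled.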
